A study of Mus musculus with 12 samples.

Results

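Motor neuron and cholinergic genes were described in spinal cord tissue of mice. The 7 genes Chat, Slc18a3, Slc5a7, Ache, Isl1, Mnx1 and Calca were looked up by symbol, and 6 of them had a row among the 37991 genes of the count table. Slc18a3, the vesicular acetylcholine transporter, had no row under its symbol or gene ID and was not analysed here. In the GENCODE annotation used here it lies wholly inside Chat on the same strand and shares 0 exon bases with it, and whether the authors' annotation assigned its reads to Chat is not given in the sources used here.

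Spinal motor neurons release acetylcholine onto muscle. Choline acetyltransferase (Chat) makes the transmitter from choline that the high-affinity choline transporter (Slc5a7) brings back into the terminal, the vesicular transporter loads it into vesicles, and acetylcholinesterase (Ache) ends its action in the cleft. Isl1 and Mnx1 encode homeodomain transcription factors that specify motor neurons during development and persist at low level in some adult neurons. Calca encodes calcitonin and, by alternative splicing, the neuropeptide CGRP, which both motor neurons and peptidergic sensory neurons of the dorsal root ganglion make. Cholinergic neurons other than motor neurons, such as autonomic preganglionic cells of the thoracic cord, also express Chat and Slc5a7.

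Bulk RNA-seq covered 3 groups of 4 libraries, each from its own numbered mouse. All mice were C57bl/6J adults over 8 weeks old and carried the alleles Glast-CreERT2, R26R-YFP and Rasless. SCI Tam mice received 2 mg tamoxifen on each of 5 days and had 7 clearing days before a dorsal hemisection at high thoracic level, and the injury site was dissected 14 days later. SCI Veh mice received the solvent and the same injury. Uninjured mice of the same genotype were labelled as vehicle-injected and untreated, and gave an intact cord segment. The Cre is driven by the Glast promoter and acts once tamoxifen is given, and the study describes the SCI Tam lesions as having attenuated and the SCI Veh lesions as having dense pericyte-derived scarring. The comparison of SCI Veh with Uninjured asks how these genes differ after injury. SCI Tam and Uninjured differ in tamoxifen and Cre action as well as in injury, and these cannot be told apart in that comparison. SCI Tam against SCI Veh asks how the genes differ between lesions with less and with more such scarring.

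Libraries held 7967970 to 12581324 counts. All SCI Tam libraries were from females and 3 of the 4 SCI Veh libraries from males, as read from Xist and Y-linked transcripts, and 3 of the 4 SCI Tam libraries (513, 549 and 564) had sample names apart from the other 9. The 5 libraries rich in skeletal muscle transcripts were SCI Veh 402, 429 and 457 and Uninjured 377 and 385. Between SCI Tam and SCI Veh, sex, sample name series and muscle content cannot be fully told apart from treatment. The comparisons with Uninjured carry such limits too. Among Uninjured libraries only 467 was from a male, and none had a sample name in the series of 513, 549 and 564. Sex in SCI Veh, and sample name series and muscle content in SCI Tam, therefore cannot be fully told apart from injury. General neuron markers such as Rbfox3 and Snap25 were present in every library. They mark neurons in general, so by themselves they do not identify spinal cord. In bulk tissue, fewer cells of a type and less RNA per cell cannot be told apart.

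The sequences upstream of the genes whose level differed from Uninjured in SCI Veh are shown because Chat and Ache fell and Calca rose. All 7 genes had an entry in the RefSeq promoter table (GRCm38.p6), and each line gives the 250 bases before the start of the gene, 5′ to 3′ on the gene's strand. The homeodomain core TAAT was searched on both strands, as were the cAMP response element TGACGTCA, the E-box CACGTG and the GC box GGGCGG, and matches are in capitals. The windows are chr14:32465910-32466159 on the minus strand for Chat, chr5:137288004-137288253 on the plus strand for Ache and chr7:114636358-114636607 on the minus strand for Calca.
Chat: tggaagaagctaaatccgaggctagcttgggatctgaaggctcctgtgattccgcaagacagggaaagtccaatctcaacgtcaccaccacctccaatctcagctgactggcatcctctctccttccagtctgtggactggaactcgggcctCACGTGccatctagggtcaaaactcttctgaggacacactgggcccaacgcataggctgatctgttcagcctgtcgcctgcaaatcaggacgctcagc
Ache: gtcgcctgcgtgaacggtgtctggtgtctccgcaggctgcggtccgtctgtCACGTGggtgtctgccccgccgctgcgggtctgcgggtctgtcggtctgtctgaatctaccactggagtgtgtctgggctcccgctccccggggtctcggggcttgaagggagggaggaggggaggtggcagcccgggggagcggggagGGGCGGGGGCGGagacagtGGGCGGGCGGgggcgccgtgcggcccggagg
Calca: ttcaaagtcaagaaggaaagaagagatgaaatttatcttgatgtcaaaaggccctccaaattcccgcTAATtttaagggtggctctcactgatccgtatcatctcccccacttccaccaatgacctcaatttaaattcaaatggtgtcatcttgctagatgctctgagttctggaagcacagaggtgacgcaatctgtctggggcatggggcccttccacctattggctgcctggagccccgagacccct
Chat and Ache each held 1 CACGTG, which 6.02% of the 32851 promoter windows in the table hold. Ache held 4 overlapping or adjacent GGGCGG sites, a motif found in 32.7% of windows. Calca held 1 TAAT, found in 54.9% of windows, and TGACGTCA, found in 1.55%, was in none of the 7. These matches are letters in the window and were not tested as binding sites.

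Chat, the enzyme that defines a cholinergic neuron, was lower in SCI Veh than in Uninjured. Chat (ENSMUSG00000021919) stood at 29.8, 38.02, 44.9 and 31.6 CPM (read counts scaled to library size after TMM normalisation) in SCI Tam libraries 452, 513, 549 and 564. It stood at 34.9, 35.9, 32.5 and 34.4 CPM in SCI Veh libraries 402, 428, 429 and 457, and at 38.4, 48.0, 47.4 and 41.3 CPM in Uninjured libraries 376, 377, 385 and 467. Every SCI Veh library lay below every Uninjured library, whereas SCI Tam 549 lay among the Uninjured libraries. The SCI Veh mean of 34.4 ± 1.44 CPM was 1.27-fold below the Uninjured mean of 43.8 ± 4.67 CPM (SD, n = 4 each), a log2 fold change of -0.35 with a standard error of 0.12 (edgeR quasi-likelihood test, Benjamini-Hochberg adjusted p = 0.0266). In SCI Tam the mean of 36.1 ± 6.85 CPM gave a log2 fold change of -0.28 against Uninjured, with a 95% interval from -0.54 to -0.02, and missed the threshold (edgeR adjusted p = 0.0692). It passed without SCI Tam library 549 (log2 fold change -0.40, adjusted p = 0.00953) or Uninjured library 376 (-0.34, adjusted p = 0.0442), and with 452 as the single SCI Tam library (-0.56, adjusted p = 0.0293). The SCI Veh call was lost without Veh library 429 or Uninjured library 377 or 385, with adjusted p values of 0.0522, 0.0771 and 0.0755, and was also lost with a sex term (adjusted p = 0.0689).

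Slc5a7, the choline transporter of the same neurons, did not pass the test in any comparison. Slc5a7 (ENSMUSG00000023945) had 107, 170, 164 and 134 CPM in SCI Tam, 120, 135, 139 and 126 CPM in SCI Veh, and 127, 156, 145 and 119 CPM in Uninjured. The 3 groups overlapped, and the SCI Tam libraries spread most widely, with an SD of 29.2 CPM. The log2 fold change was -0.08 in SCI Veh against Uninjured (95% interval -0.36 to 0.21, adjusted p = 0.658) and 0.07 in SCI Tam against Uninjured (-0.21 to 0.36, adjusted p = 0.668), both by edgeR.

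Set against each other within a library, Chat was lower relative to Slc5a7 in both lesion groups, a comparison chosen after the values were seen. The ratio of Chat to Slc5a7 CPM averaged 0.253 ± 0.028 in SCI Tam, 0.267 ± 0.024 in SCI Veh and 0.321 ± 0.020 in Uninjured (SD, n = 4 each). Its highest value was 0.279 in SCI Tam and 0.292 in SCI Veh, against a lowest value of 0.303 in Uninjured, so neither lesion group overlapped Uninjured. The 2 lesion groups overlapped each other. Such separation was common, as 8 of the 15 CPM ratios between members had no overlap in SCI Veh against Uninjured, and 7 of 15 in SCI Tam. For Chat to Slc5a7 the two-sided exact permutation p was 0.0286 in each, the smallest that 4 against 4 libraries allow. After adjustment over 45 tests it was 0.0857, so this ratio did not pass in either comparison.

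Ache, which hydrolyses acetylcholine, was lower in both lesion groups than in Uninjured. Ache (ENSMUSG00000023328) had 143, 150, 135 and 173 CPM in SCI Tam, 130, 152, 116 and 139 CPM in SCI Veh, and 199, 209, 211 and 200.4 CPM in Uninjured. No library of either lesion group reached the lowest Uninjured library. SCI Veh averaged 134 ± 15.2 CPM and Uninjured 205 ± 6.04 CPM (SD, n = 4 each), a 1.52-fold lower level (log2 fold change -0.61, standard error 0.09, edgeR adjusted p = 0.00011). SCI Tam averaged 150.4 ± 16.1 CPM, 1.36-fold below Uninjured (log2 fold change -0.44, standard error 0.09, edgeR adjusted p = 0.00124). Ache shares 98 exon bases with the opposite-strand transcript Gm42456 in the annotation, and whether the counting used strand is not given in the sources used here.

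**Figure D1:**
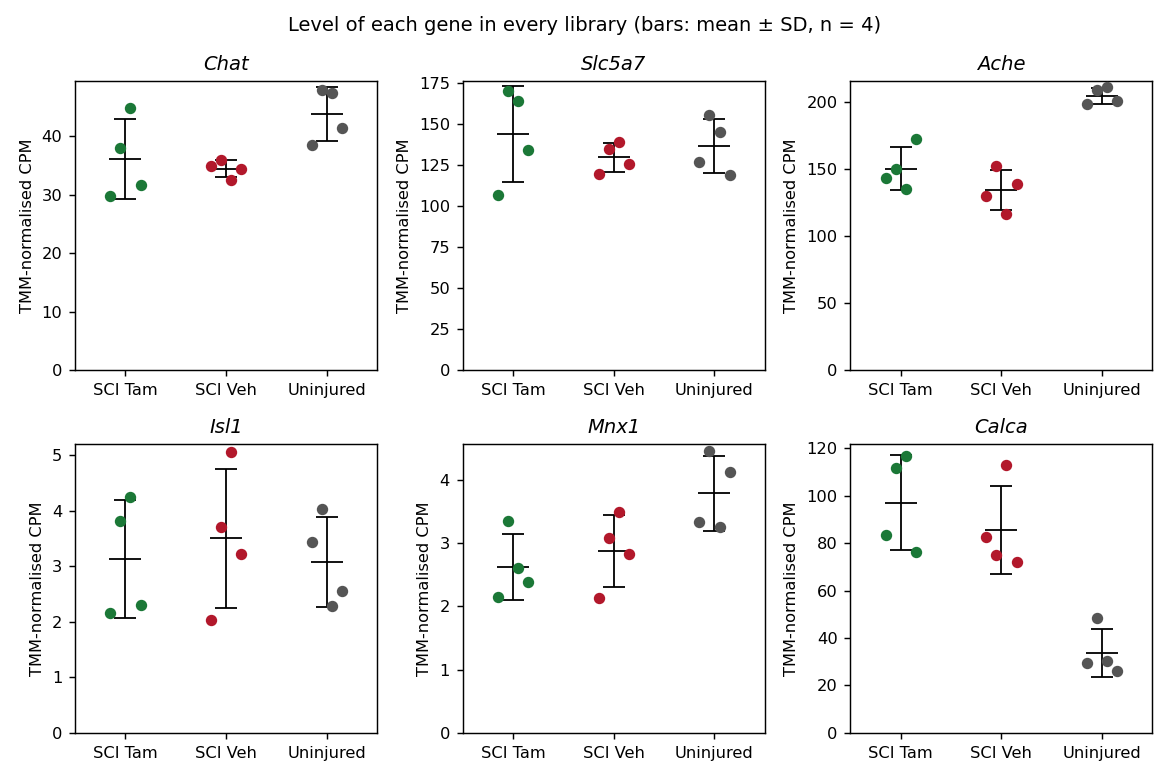
TMM-normalised CPM of the 6 measured genes in each library of SCI Tam, SCI Veh and Uninjured, with points for libraries and bars for mean ± SD (n = 4). Calca was higher and Ache lower in every lesion library than in every Uninjured library, and Slc5a7 and Isl1 overlapped in all 3 groups. The share of all genes that separate in this way was not counted.

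The transcription factor genes were near the lower end of what these libraries resolve. Isl1 (ENSMUSG00000042258) had 18 to 55 counts per library and Mnx1 (ENSMUSG00000001566) 18 to 52. Isl1 stood at 2.16, 3.82, 4.25 and 2.30 CPM in SCI Tam, 2.03, 3.70, 5.05 and 3.21 CPM in SCI Veh, and 3.44, 4.03, 2.28 and 2.55 CPM in Uninjured. The groups overlapped and the intervals were wide, with a log2 fold change of 0.19 in SCI Veh against Uninjured (95% interval -0.47 to 0.85, edgeR adjusted p = 0.629) and 0.04 in SCI Tam (-0.62 to 0.70, adjusted p = 0.924). The highest Isl1 value, 5.05 CPM, was in SCI Veh library 429, and without that library the log2 fold change of SCI Veh was -0.07.

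Mnx1 had 2.16, 3.35, 2.60 and 2.39 CPM in SCI Tam, 2.14, 3.09, 3.49 and 2.82 CPM in SCI Veh, and 3.33, 4.46, 3.25 and 4.13 CPM in Uninjured. Only SCI Tam library 513 and SCI Veh library 429 reached into the Uninjured range. Mnx1 was 1.44-fold lower in SCI Tam than in Uninjured (log2 fold change -0.53, standard error 0.20, edgeR adjusted p = 0.0435), a call lost under 8 of 13 alternative settings and in 5 of 8 fits that left out 1 library. These were SCI Tam libraries 452, 549 and 564 and Uninjured libraries 377 and 467, with adjusted p from 0.0801 to 0.126. SCI Veh against Uninjured had a log2 fold change of -0.39 (95% interval -0.82 to 0.03, edgeR adjusted p = 0.114).

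Calca moved the other way and by the largest amount of the 6. Calca (ENSMUSG00000030669) had 83.5, 112, 117 and 76.3 CPM in SCI Tam, 82.6, 75.1, 113 and 72.1 CPM in SCI Veh, and 29.6, 48.6, 30.1 and 26.0 CPM in Uninjured. The lowest lesion library lay above the highest Uninjured library. SCI Tam averaged 97.1 ± 20.1 CPM and Uninjured 33.6 ± 10.2 CPM (SD, n = 4 each), 2.89-fold higher (log2 fold change 1.53, standard error 0.21, edgeR adjusted p = 0.000145). SCI Veh averaged 85.6 ± 18.6 CPM, 2.55-fold above Uninjured (log2 fold change 1.35, standard error 0.21, edgeR adjusted p = 0.000206). Counts are per gene, so calcitonin and CGRP transcripts were not separated. Calcb, the paralogue that encodes the second form of CGRP, can share reads with Calca and was named after its values were seen. Calcb averaged 16.8 ± 6.42 CPM in SCI Tam, 14.6 ± 4.32 CPM in SCI Veh and 9.29 ± 2.64 CPM in Uninjured (SD, n = 4 each), with edgeR adjusted p = 0.0245 for SCI Tam and 0.0732 for SCI Veh against Uninjured.

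Sensory neurons of the dorsal root ganglion also make Calca, and some markers of these neurons, though not all, peaked in 1 library. Scn10a, a sodium channel of nociceptive neurons, had 93 counts (8.54 CPM) in SCI Veh library 429, 0 counts in all 4 SCI Tam libraries and at most 6 counts in any other library. Avil, the sensory neuron gene advillin, had 13.04 CPM in the same library and at most 2.41 CPM elsewhere. The summed level of the 10 dorsal root ganglion markers ranged from 10.2 to 15.4 CPM in SCI Tam, 10.6 to 43.5 CPM in SCI Veh and 19.8 to 29.8 CPM in Uninjured. Of the 4 that were tested, none passed as higher and 2 (Pou4f1 and Tlx3, which dorsal horn neurons also express) fell in both lesion groups against Uninjured. Avil had a log2 fold change of 1.78 in SCI Veh against Uninjured (edgeR adjusted p = 0.0511) and was lower in SCI Tam than in SCI Veh (edgeR adjusted p = 0.0268). P2rx3 reached 3.21 CPM in SCI Tam, 2.59 CPM in SCI Veh and 2.72 CPM in Uninjured. Without SCI Veh library 429 the log2 fold change of Calca in SCI Veh against Uninjured was 1.16 (edgeR adjusted p = 0.000776). Any part of sensory neurons in the Calca level was not tested.

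**Figure D2:**
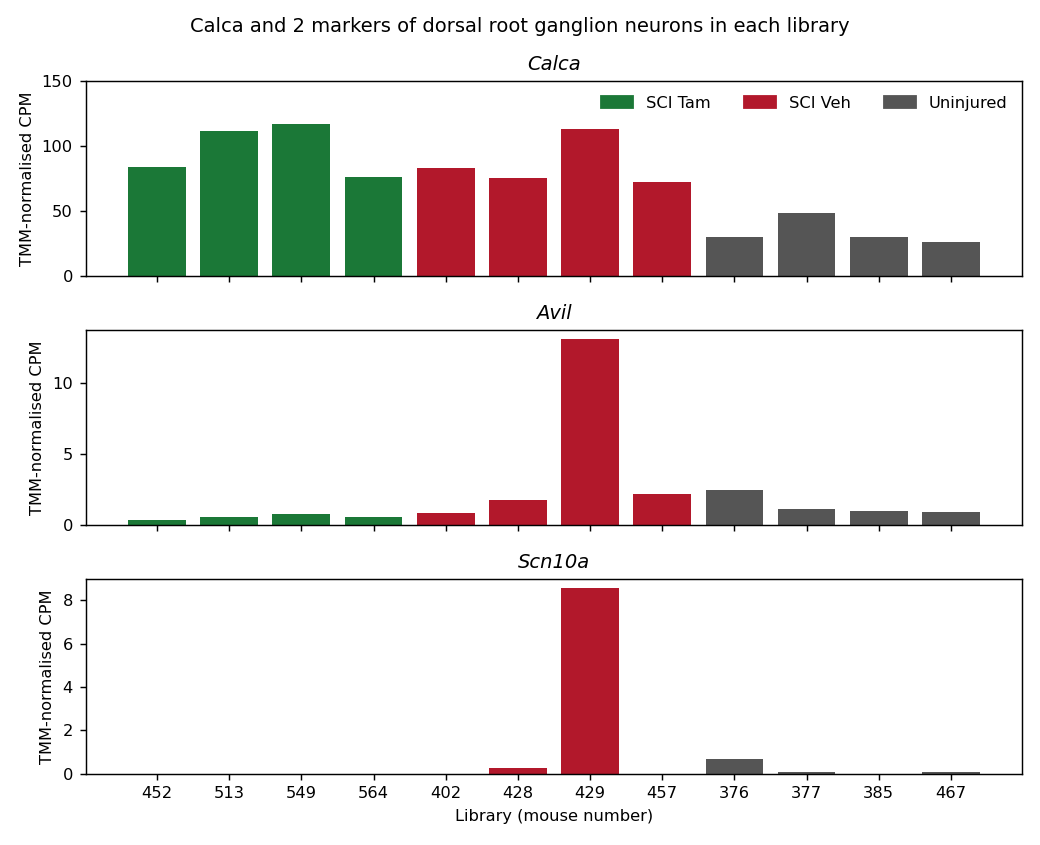
TMM-normalised CPM of Calca and of the dorsal root ganglion markers Avil and Scn10a in each library, by mouse number and coloured by group. Avil and Scn10a peak in SCI Veh library 429 at 13.04 and 8.54 CPM, while Calca is as high in SCI Tam libraries 513 and 549.

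In counts, 3 of the 6 measured genes passed the test in SCI Veh against Uninjured (1 higher, 2 lower), where 50.8% of the 16473 genes tested did, 26.7% higher and 24.1% lower. In SCI Tam against Uninjured 3 of 6 passed (1 higher, 2 lower), where 48.9% of all genes did, 26.3% higher and 22.7% lower. These shares are near those of all genes. How many of all genes had no overlap in CPM between a lesion group and Uninjured, as Ache and Calca did, was not counted. The 2 comparisons share the Uninjured libraries, so their likeness is not independent. Without the 5 muscle-rich libraries, which leaves 1 SCI Veh library that is assumed to vary like the other groups, none of the 6 passed in SCI Veh. The log2 fold changes were then -0.18 for Chat, -0.42 for Ache and 1.41 for Calca, with adjusted p of 0.719, 0.191 and 0.0508, and 296 genes passed in all.

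None of the 6 genes passed the test between SCI Tam and SCI Veh, where 16.1% of all genes did, 7.79% higher and 8.33% lower, and none had an unadjusted p under 0.05 (edgeR). DESeq2 and limma-voom also called 0 of the 6. Ache came nearest, with a log2 fold change of 0.16 (95% interval -0.03 to 0.35, adjusted p = 0.207). The intervals were -0.19 to 0.33 for Chat, -0.13 to 0.43 for Slc5a7 and -0.26 to 0.62 for Calca. They were widest for Isl1, from -0.81 to 0.51, and for Mnx1, from -0.57 to 0.31. With only SCI Tam library 452, whose sample name belongs to the same series as the SCI Veh libraries, the log2 fold changes were -0.21 for Chat, -0.28 for Slc5a7 and -0.04 for Calca.

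**Figure D3:**
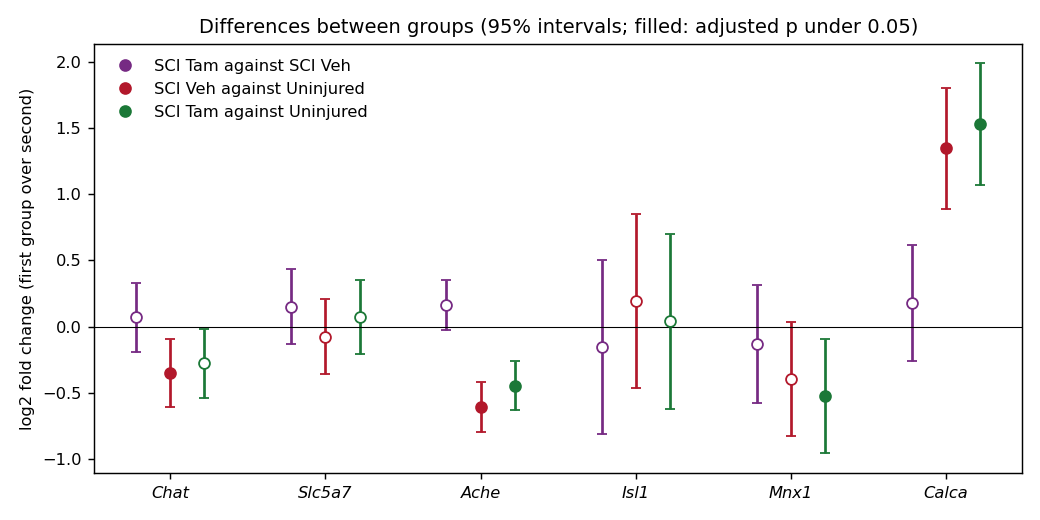
Log2 fold change of each gene in SCI Tam against SCI Veh, SCI Veh against Uninjured and SCI Tam against Uninjured, with 95% intervals and filled points where the adjusted p was under 0.05. All 6 intervals for SCI Tam against SCI Veh include 0, while Calca lies well above 0 and Ache below 0 in both comparisons with Uninjured.

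Per unit of length, in FPKM (fragments scaled for gene length and library depth), the order of the genes differed between lesion and intact cord. In SCI Tam the level was 94.2 FPKM for Calca, 60.2 for Ache, 24.6 for Slc5a7, 10.9 for Chat, 1.64 for Isl1 and 1.03 for Mnx1. In SCI Veh it was 80.0 FPKM for Calca, 51.1 for Ache, 21.3 for Slc5a7, 10.3 for Chat, 2.20 for Isl1 and 1.11 for Mnx1. In Uninjured, Ache led with 74.7 FPKM, followed by Calca at 31.8, Slc5a7 at 22.02, Chat at 13.2, Isl1 at 1.67 and Mnx1 at 1.43. No neighbours in the order overlapped in the lesion groups, whereas in Uninjured Calca overlapped Slc5a7 and Isl1 overlapped Mnx1. The ratio of CPM to FPKM for Isl1 ranged over 0.967 on the log2 scale across libraries, so its per-length level is less certain than that of the others, which ranged over at most 0.304.

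Neuron markers as a whole were lower after injury, so each gene was also set against them in the same library. All 18 neuron markers fell in SCI Veh and 14 of 18 fell in SCI Tam against Uninjured (edgeR), with medians of -0.65 and -0.42 on the log2 scale beside 0.018 and 0.014 over all genes tested. Rbfox3, the neuronal nuclear antigen NeuN, stood at 109 ± 16.6 CPM in SCI Tam, 98.2 ± 14.7 CPM in SCI Veh and 202 ± 3.12 CPM in Uninjured (SD, n = 4 each). Slc6a5 and Slc32a1, which move and package inhibitory transmitters, fell by 0.86 and 1.05 in SCI Veh and by 0.74 and 0.75 in SCI Tam on the log2 scale. Between SCI Tam and SCI Veh, 4 of the 18 markers were higher in SCI Tam and none lower, where 7.79% of all genes were higher, and the list median was 0.23. These were Elavl4, Uchl1, Stmn2 and Tubb3, with log2 fold changes of 0.39, 0.36, 0.28 and 0.21 (edgeR adjusted p = 0.0179, 0.0149, 0.0083 and 0.036). The mean log2 level of the 18 markers was itself 0.65 lower in SCI Veh and 0.46 lower in SCI Tam than in Uninjured. A gene whose level did not change therefore stands higher by these amounts on this scale. Relative to that mean, Ache differed from Uninjured by 0.04 in SCI Veh and 0.01 in SCI Tam. Under 3 other settings of this measure the Ache difference ranged from 0.04 to 0.19 in SCI Veh and from 0.01 to 0.23 in SCI Tam. Chat was 0.31 and Slc5a7 0.58 higher relative to neuron markers in SCI Veh, and Calca was 2.02 higher in SCI Veh and 2.01 higher in SCI Tam. These 4 differences had no overlap between groups and each had a two-sided exact permutation p of 0.0286, the smallest that 4 against 4 libraries allow. After adjustment over the 18 tests it was 0.129, so none of the 18 passed. The Chat and Slc5a7 differences in SCI Veh were smaller than the 0.65 by which the marker mean fell. The share of all genes without overlap on this scale was not counted. With overlap between the groups, Isl1 was 0.80 higher in SCI Veh and 0.46 higher in SCI Tam, Slc5a7 0.51 and Chat 0.17 higher in SCI Tam, and Mnx1 0.26 higher in SCI Veh and at -0.06 in SCI Tam.

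**Figure D4:**
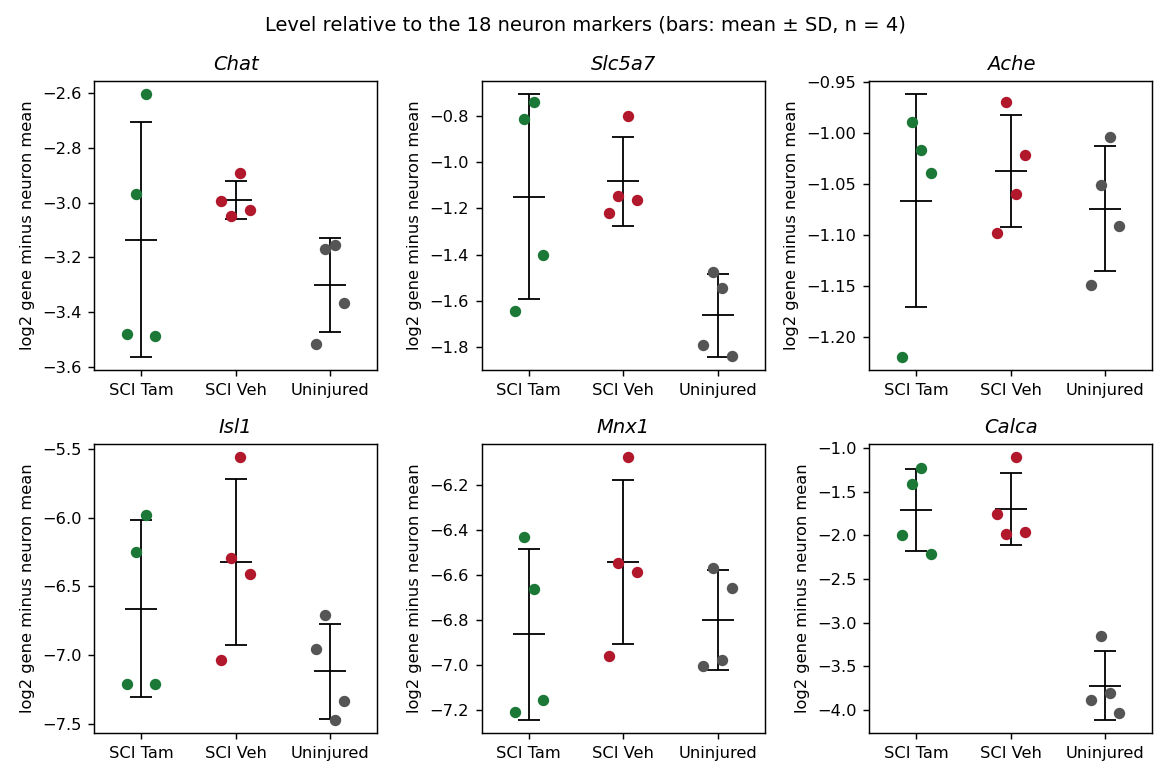
Log2 level of each gene minus the mean log2 level of the 18 neuron markers in the same library, for SCI Tam, SCI Veh and Uninjured, with points for libraries and bars for mean ± SD (n = 4). Ache overlaps in all groups, Chat and Slc5a7 are higher in every SCI Veh library than in every Uninjured library, and Calca is higher in every lesion library. The marker mean itself is 0.65 lower in SCI Veh and 0.46 lower in SCI Tam than in Uninjured.

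Most muscarinic and neuronal nicotinic receptor genes that could be tested fell in lesions. Of 5 muscarinic receptor genes, 4 fell in SCI Veh and 3 in SCI Tam against Uninjured, and none rose, with list medians of -1.07 and -0.59. Chrm1, the member called in neither group, had 1.38 ± 0.618 CPM in SCI Tam, 1.62 ± 0.516 CPM in SCI Veh and 1.56 ± 0.344 CPM in Uninjured (SD, n = 4 each). Chrm2, the receptor that inhibits release at many cholinergic terminals, had 70.2 ± 6.65 CPM in SCI Tam, 59.8 ± 6.09 CPM in SCI Veh and 106 ± 1.30 CPM in Uninjured (edgeR adjusted p = 0.00012 and 8.49e-06 against Uninjured). Of the 11 neuronal nicotinic subunit genes 6 were expressed enough to test, and 4 of these fell in each lesion group, with medians of -0.79 in SCI Veh and -0.75 in SCI Tam. Chrna7, the subunit of the homomeric alpha7 receptor, had 9.37 ± 1.72 CPM in SCI Tam, 6.97 ± 2.33 CPM in SCI Veh and 18.8 ± 1.09 CPM in Uninjured (edgeR adjusted p = 0.0013 and 0.000103). Chrna4, the subunit that pairs with Chrnb2 in the main brain receptor, had 46.3 ± 7.30 CPM in SCI Tam, 47.4 ± 5.33 CPM in SCI Veh and 81.3 ± 5.22 CPM in Uninjured (edgeR adjusted p = 0.000131 and 0.0001). These lists are read beside the 22.7% to 24.1% of all genes that fell, and beside the neuron markers, which fell too. No muscarinic or neuronal nicotinic gene passed between SCI Tam and SCI Veh.

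Genes of the muscle side of the synapse followed another pattern. Of 6 muscle endplate genes 3 could be tested, and Chrna1, Chrnb1 and Musk were all lower in SCI Tam than in SCI Veh, where 8.33% of all genes were lower. Against Uninjured, Chrna1 and Chrnb1 rose in SCI Veh (edgeR adjusted p = 0.00348 and 0.0125) and none of the 3 passed in SCI Tam. Chrna1, the alpha subunit of the muscle nicotinic receptor, had 0.772 ± 0.236 CPM in SCI Tam, 2.51 ± 1.45 CPM in SCI Veh and 0.712 ± 0.316 CPM in Uninjured (edgeR adjusted p = 0.0202 for SCI Tam against SCI Veh). The summed level of 13 skeletal muscle markers ranged from 5.98 to 31.1 CPM in SCI Tam, 17.9 to 858 CPM in SCI Veh and 9.18 to 1137 CPM in Uninjured, and its part in these 3 genes was not tested. Of 12 tested muscle markers 5 were lower in SCI Tam than in SCI Veh and 7 were not called, where 8.33% of all genes were lower. The 5 included the myosin genes Myh1 and Myh2 and the myoglobin gene Mb (edgeR adjusted p = 0.0124, 0.005 and 0.00461). The summed level of the 6 endplate genes was 18.5 CPM in SCI Veh library 457, which had 858 CPM of muscle markers. It was 9.51 CPM in SCI Veh library 428 with 17.9 CPM of muscle markers, and 5.57 CPM in Uninjured library 377 with 1137 CPM.

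Of 11 tested genes that handle acetylcholine and choline, 3 rose and 3 fell in SCI Veh and 4 rose and 3 fell in SCI Tam against Uninjured. These counts are close to the shares of all genes, 26.7% higher and 24.1% lower in SCI Veh and 26.3% and 22.7% in SCI Tam. Slc44a2, a choline transporter-like protein found well beyond neurons, had 103 ± 15.2 CPM in SCI Tam, 125 ± 15.2 CPM in SCI Veh and 66.4 ± 3.98 CPM in Uninjured. Acly, which makes cytosolic acetyl-CoA, had 458 ± 49.7 CPM in SCI Tam, 414 ± 11.8 CPM in SCI Veh and 578 ± 30.4 CPM in Uninjured, and Lynx1, a membrane-tethered modulator of nicotinic receptors, fell by 0.54 in SCI Veh on the log2 scale (edgeR adjusted p = 0.00067).

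Of 17 tested markers of motor neurons and their subtypes, 4 rose and 6 fell in SCI Veh, beside 26.7% and 24.1% of all genes, and 2 rose and 6 fell in SCI Tam against Uninjured, beside 26.3% and 22.7%, with Isl2 at 0 counts in all 12 libraries. Esrrg, an orphan nuclear receptor of gamma motor neurons in mice, had 71.0 ± 6.04 CPM in SCI Tam, 69.3 ± 4.51 CPM in SCI Veh and 107 ± 3.52 CPM in Uninjured. Lhx4, a LIM homeodomain factor of developing motor neurons, had 6.91 ± 0.550 CPM in SCI Tam, 6.98 ± 0.756 CPM in SCI Veh and 12.3 ± 2.00 CPM in Uninjured. Anxa4 rose by 1.63 in SCI Veh and 1.18 in SCI Tam on the log2 scale, and like several others in the list it is made by many non-neuronal cells. Sv2b, a synaptic vesicle protein, was the single gene of this list higher in SCI Tam than in SCI Veh, at 118 ± 4.80 CPM in SCI Tam and 93.3 ± 10.5 CPM in SCI Veh (edgeR adjusted p = 0.0124), while Foxp1, Tns1 and Fbn2 were lower, beside 7.79% of all genes higher and 8.33% lower.

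Of 7 tested genes for CGRP, related peptides and their receptors, 3 rose and 1 fell in SCI Veh, where 26.7% of all genes rose and 24.1% fell, and 4 rose and none fell in SCI Tam, where 26.3% rose and 22.7% fell. The 4 in SCI Tam were the ligand gene Calcb and the receptor genes Calcrl, Ramp1 and Ramp2. Calcrl, the receptor core, had 34.9 ± 5.37 CPM in SCI Tam, 28.7 ± 0.955 CPM in SCI Veh and 22.5 ± 1.61 CPM in Uninjured (edgeR adjusted p = 0.000334 and 0.0105). Ramp1, whose product turns that core into a CGRP receptor, had 84.5 ± 9.90 CPM in SCI Tam, 75.4 ± 8.02 CPM in SCI Veh and 63.1 ± 4.27 CPM in Uninjured (adjusted p = 0.00296 and 0.0393). Ramp2, whose product makes an adrenomedullin receptor of it, rose by 0.87 in SCI Veh and 0.67 in SCI Tam on the log2 scale, and Ramp3 fell by 0.84 in SCI Veh.

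**Figure D5:**
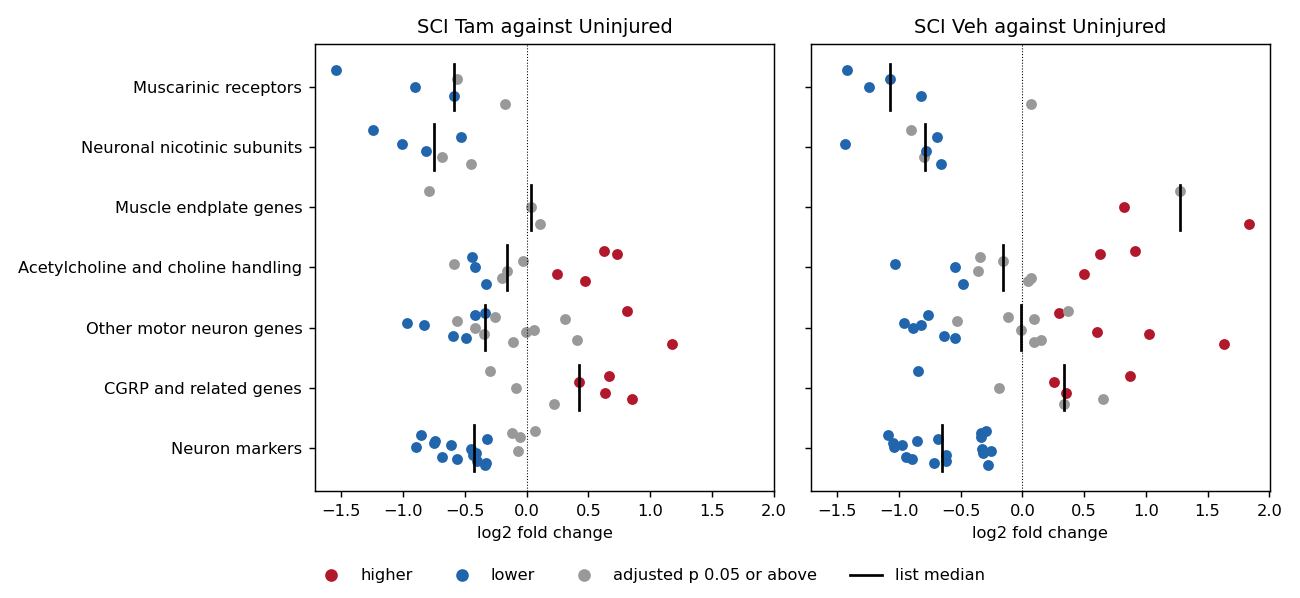
Log2 fold change of each tested gene in 7 lists, in SCI Tam against Uninjured and SCI Veh against Uninjured, with red for higher, blue for lower, grey for an adjusted p of 0.05 or above and a black line for the list median. The neuron marker, muscarinic and neuronal nicotinic medians lie below 0 in both, and the median of the CGRP and related genes lies above 0.

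The genes whose profile over the 12 libraries lay nearest to each of the 4 more abundant members were found among 13876 genes by the mean absolute log2 difference after centring. Nearest to Ache were Ndrg4, Ppp1r3f and Csdc2, at 0.0395, 0.0396 and 0.0430, where the median gene lay at 0.303. Nearest to Chat were Irx3, Slc45a4 and Tmem8, at 0.0859, 0.0909 and 0.0931 beside a median of 0.258. Nearest to Slc5a7 were Cd1d1, Adrb1 and Ttll12, at 0.0751, 0.0811 and 0.0881 beside 0.252. For Calca the nearest were the pseudogene Cd9-ps, Dhrs1 and Rab7l1, at 0.119, 0.138 and 0.144 beside a median of 0.658. The medians differ between members, so the distances are not compared between them.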

How the data were processed

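Total RNA from 12 spinal cord samples was extracted with the RNeasy kit, per the labels' protocols, and TopHat, Picard, Cufflinks, HTSeq and the mm9 build are named in the submitters' processing notes. The authors deposited raw read counts per gene and FPKM values per gene in 2 tables, and neither source states strand use or the annotation. Counts were analysed with edgeR 4.0.16 in R 4.3.3: filterByExpr, TMM, a quasi-likelihood fit of 3 group means over all 12 libraries and Benjamini-Hochberg adjustment over 16473 genes, with a threshold of 0.05. Depth was 7967970 to 12581324 counts a library. The deposited FPKM served for levels between genes and, with limma 3.58.1, as an alternative. DESeq2 1.42.0, limma-voom, other scalings and filters, terms for sex and sample name series, and left-out libraries were the other alternatives. Levels relative to neuron markers used log2(CPM + 0.1) and two-sided exact permutation tests (scipy 1.17.1). Ratios between members used the same test on log2 ratios.

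The members and lists were chosen with earlier results of these data known. Named are the members, genes drawn from the 4 a list with the smallest p in SCI Veh against Uninjured and from those called between SCI Tam and SCI Veh (not all of them are named), Calcb and Chrm1, chosen after their values were seen, and the 3 nearest profiles per member with at least 5 CPM (log2(CPM + 0.5)). The edgeR script was tested on simulated data. Markers of red blood cells (5 tested, none called) and Schwann cells (10 tested, 3 higher in each lesion group than in Uninjured and 1 lower in SCI Veh) were also counted. Nothing in the labels says that the mice were handled in batches.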

Additional observations from a re-analysis of the deposited data

Results flagged for a closer look

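No value of the 6 measured genes stood apart from its group. Of 174 groups of 4 libraries checked over members and lists, 15 had 1 library far from the other 3, where chance alone gives about 5%. Avil was high in SCI Veh library 429 at 13.04 CPM, against at most 2.20 CPM in the other SCI Veh libraries, and in Uninjured library 376 at 2.41 CPM. Among receptors and motor neuron genes, Chrm4 was high in SCI Tam library 564 at 4.32 CPM and Fbn2 was low in SCI Tam library 513 at 4.47 CPM. In Uninjured library 467, Anxa4 was low at 10.7 CPM and Chrnb1 low at 2.90 CPM.

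Among neuron markers, Stmn2 was high in SCI Veh library 428 at 319.6 CPM, Rbfox3 in Uninjured library 377 at 206 CPM and Map2 in Uninjured library 385 at 1173 CPM. Myh4 was high in SCI Tam library 564 at 4.59 CPM. In Uninjured library 377 the muscle genes Myl1 and Ttn were high at 16.3 and 95.6 CPM, and in Uninjured library 376 the haemoglobin genes Hba-a1, Hba-a2 and Hbb-b1 were high at 16.5, 59.1 and 70.01 CPM.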

How the results depend on the processing

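Calca and Ache kept their call and direction against Uninjured in each left-out library fit, and in SCI Tam under all 13 other settings. Without the 5 muscle-rich libraries 0 members passed in SCI Veh, and 296, 3540 and 0 genes passed in SCI Veh against Uninjured, SCI Tam against Uninjured and SCI Tam against SCI Veh. With a series term 1951 genes passed in SCI Tam against Uninjured and 57 against SCI Veh, and without libraries 513, 549 and 564 these were 2024 and 29. Between SCI Tam and SCI Veh, where 2655 genes passed, 1518 and 1438 passed on log2(FPKM + 1) and log2(FPKM + 0.1), 1513 with the 8 libraries compared and 989 with a sex term, and 1236 (without 513) to 4631 (without 452) with 1 library left out. That count was 1324 without 564 and 1688 without 457.

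Values that changed sign were all uncalled log2 differences, and the cause was not tested. Slc5a7 in SCI Veh against Uninjured became 0.025 with a sex term and 0.10 without muscle-rich libraries. In SCI Tam against Uninjured, Slc5a7 became -0.36 with a series term and -0.36 without libraries 513, 549 and 564, and Isl1 became -0.51 under both of these, -0.011 on log2(FPKM + 1), -0.014 on log2(FPKM + 0.1) and -0.094 with a sex term. In SCI Tam against SCI Veh, the series term and the fit without those 3 libraries gave -0.21 and -0.21 for Chat, -0.28 and -0.28 for Slc5a7 and -0.037 and -0.036 for Calca. Ache became -0.015 without muscle-rich libraries and Calca -0.19 with a sex term. Relative to neuron markers, Mnx1 in SCI Tam against Uninjured became 0.051 with a pseudocount of 1 CPM and 0.11 in FPKM, and Ache and Calca in SCI Tam against SCI Veh became 0.0432 and 0.0433 in FPKM.

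With 1 library left out, differences ranged from -0.066 to 0.36 for Isl1 in SCI Veh against Uninjured. In SCI Tam against Uninjured they ranged from -0.016 to 0.18 for Slc5a7 and -0.14 to 0.20 for Isl1. In SCI Tam against SCI Veh they ranged from -0.051 to 0.15 for Chat and -0.34 to 0.089 for Isl1. Relative to neuron markers, the ranges in SCI Tam against Uninjured were -0.011 to 0.28 for Chat, -0.21 to 0.053 for Mnx1 and -0.018 to 0.059 for Ache, and in SCI Tam against SCI Veh -0.20 to 0.099 for Slc5a7, -0.055 to 0.022 for Ache and -0.17 to 0.19 for Calca. With 3 against 4 libraries the exact test cannot go below 0.0571.

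No paired analysis was possible because the groups share no mouse number. Depth limits Isl1 and Mnx1, with 18 to 55 counts a library.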
